A study of Mus musculus with 2 samples.

Results

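Histone eviction and chromatin remodelling factors were followed here as 9 genes, Brdt, Cdyl, Chd5, Rnf8, Pygo2, Psme4, Nasp, Cbx1 and Kdm3a, which were taken by symbol from the feature lists of both libraries. All 9 were present among the 30052 symbols of the joined matrices. The data are droplet single-cell RNA sequencing of dissociated adult mouse testis, with 1 Nsun7 knockout library and 1 wild-type (WT) library. Nsun7 belongs to a family of proteins related to RNA cytosine methyltransferases. The labels give the genotype and adult age of each group but not the strain, the allele or the number of animals.

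In the last phase of sperm formation, nucleosomes of round spermatids are opened, their histones are acetylated and ubiquitinated, and transition proteins and then protamines take the place of most histones. The genes described here act at different points of that exchange. Some read acetylated or methylated histone tails, some ubiquitinate histones or degrade them, and others move nucleosomes, carry free histones or set the heterochromatin marks that precede condensation. Transcription stops as the nucleus condenses, so an mRNA found in a late spermatid was made earlier and stored.

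After filtering, 13869 knockout cells and 15139 WT cells remained. Each counted molecule carries a unique molecular identifier (UMI), and the middle cell had 12020 UMIs in the knockout and 8723 UMIs in WT. Cells were grouped by clusters named from marker genes, and each class name is to be read as "like" that type. The germ cell classes held 567 knockout and 1234 WT spermatogonia, 237 knockout and 699 WT early spermatocytes, 1404 knockout and 3800 WT late spermatocytes, 562 knockout and 1372 WT round spermatids, and 8212 knockout and 4780 WT elongating spermatids. The elongating class was named from transition protein and protamine transcripts, whose transcription begins in round spermatids, so it also takes in the last round steps. Unnamed clusters are in no class, among them cluster 7, with 677 knockout and 646 WT cells closest by markers to round spermatids. Nsun7 itself was lower in the knockout library in all 9 classes compared, at 3.78 to 51.1 CPM (counts scaled to a total of 1000000) in knockout cells and 25.9 to 218 CPM in WT cells. Its transcript was counted in knockout cells too, and whether the counted reads lie in the deleted part is not given in the sources used here. A total of 1654 running barcode names occurred among the kept cells of both libraries, and 21.9% of those pairs fell in the same class, where the class sizes alone give 23.5%. With 1 library per genotype no difference has a replicate check, and no test was possible. Bounds in brackets are at the 95% level and reflect counting error only.

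Cdyl and Chd5 are shown first by sequence, because the transcripts of both came up in round spermatids. The 300-base windows run 250 bases before to 50 after an annotated transcription start (RefSeq, GRCm38.p6), 5′ to 3′ on the plus strand, and capitals mark the core of the cyclic AMP response element, TGACGT or ACGTCA on the other strand. Cdyl has start sites far apart within the gene, and windows at 2 of them are given.
Chd5, chr4:152338401-152338700: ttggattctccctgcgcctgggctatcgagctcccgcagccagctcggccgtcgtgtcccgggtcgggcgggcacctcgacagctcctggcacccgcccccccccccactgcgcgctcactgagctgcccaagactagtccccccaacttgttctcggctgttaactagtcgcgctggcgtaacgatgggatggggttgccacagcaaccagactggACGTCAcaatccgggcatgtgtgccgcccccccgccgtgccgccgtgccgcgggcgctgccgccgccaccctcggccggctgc
Cdyl, downstream start, chr13:35741212-35741511: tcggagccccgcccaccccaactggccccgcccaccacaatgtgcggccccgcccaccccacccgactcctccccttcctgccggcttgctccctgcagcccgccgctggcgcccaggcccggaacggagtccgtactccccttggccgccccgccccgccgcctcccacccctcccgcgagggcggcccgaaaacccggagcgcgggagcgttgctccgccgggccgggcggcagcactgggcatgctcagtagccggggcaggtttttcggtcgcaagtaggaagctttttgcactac
Cdyl, upstream start, chr13:35659612-35659911: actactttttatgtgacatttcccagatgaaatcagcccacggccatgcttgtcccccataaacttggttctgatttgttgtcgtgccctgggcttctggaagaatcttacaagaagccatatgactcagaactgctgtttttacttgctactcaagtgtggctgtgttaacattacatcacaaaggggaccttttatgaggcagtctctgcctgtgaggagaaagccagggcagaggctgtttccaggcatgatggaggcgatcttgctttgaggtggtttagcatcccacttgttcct
The element core stands 33 bases before the Chd5 start and is in none of the Cdyl windows. Searched on both strands, it occurred in 7.51% of 32851 promoter windows of this length. It is the sequence that the spermatid activator CREM is known to bind, and a match of letters is a description of the window only. Among windows of the other 7 genes, none held these letters.

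In GRCm38 with GENCODE M21, Cdyl lies on chromosome 13 from 35659833 to 35874063 on the plus strand, and Chd5 on chromosome 4 from 152338651 to 152390194 on the plus strand. An antisense transcript, Gm48708, overlaps Cdyl, and Gm13645 overlaps Chd5 on the opposite strand. Rnf8, on chromosome 17 from 29614790 to 29644991 on the plus strand, shares its span with the protein-coding model Gm28043. Whether counting used strand or split shared reads is not given in the sources used here, so counts of these 3 genes may include or lack reads of their overlapping models. Brdt is on chromosome 5 (107331159 to 107387058, plus strand), Pygo2 on chromosome 3 (89430214 to 89435128, plus), Psme4 on chromosome 11 (30771726 to 30880361, plus) and Cbx1 on the same chromosome (96789127 to 96808640, plus). Nasp is on chromosome 4 (116601052 to 116627941, minus) and Kdm3a on chromosome 6 (71588972 to 71632990, minus).

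Along the germ line the 9 genes were highest at different stages. Rnf8 and Pygo2 were highest in spermatogonia, Cbx1 and Kdm3a in early spermatocytes, Brdt and Nasp in late spermatocytes, Psme4 and Chd5 in round spermatids, and Cdyl in elongating spermatids. All 9 had the same highest class in the knockout and the WT library, among 5 germ cell and 4 somatic classes with at least 50 cells in each library. For Rnf8 (spermatogonia and early spermatocytes) and Kdm3a (early and late spermatocytes), the highest class and the next did not differ beyond counting error in the knockout. Relatives of the genes, below, were ranked over the 5 germ cell classes only. Calls between consecutive stages below need a 2-fold change after 5 CPM is added to both sides and a mean of at least 10 CPM, and printed folds carry no such addition.

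**Figure D1:**
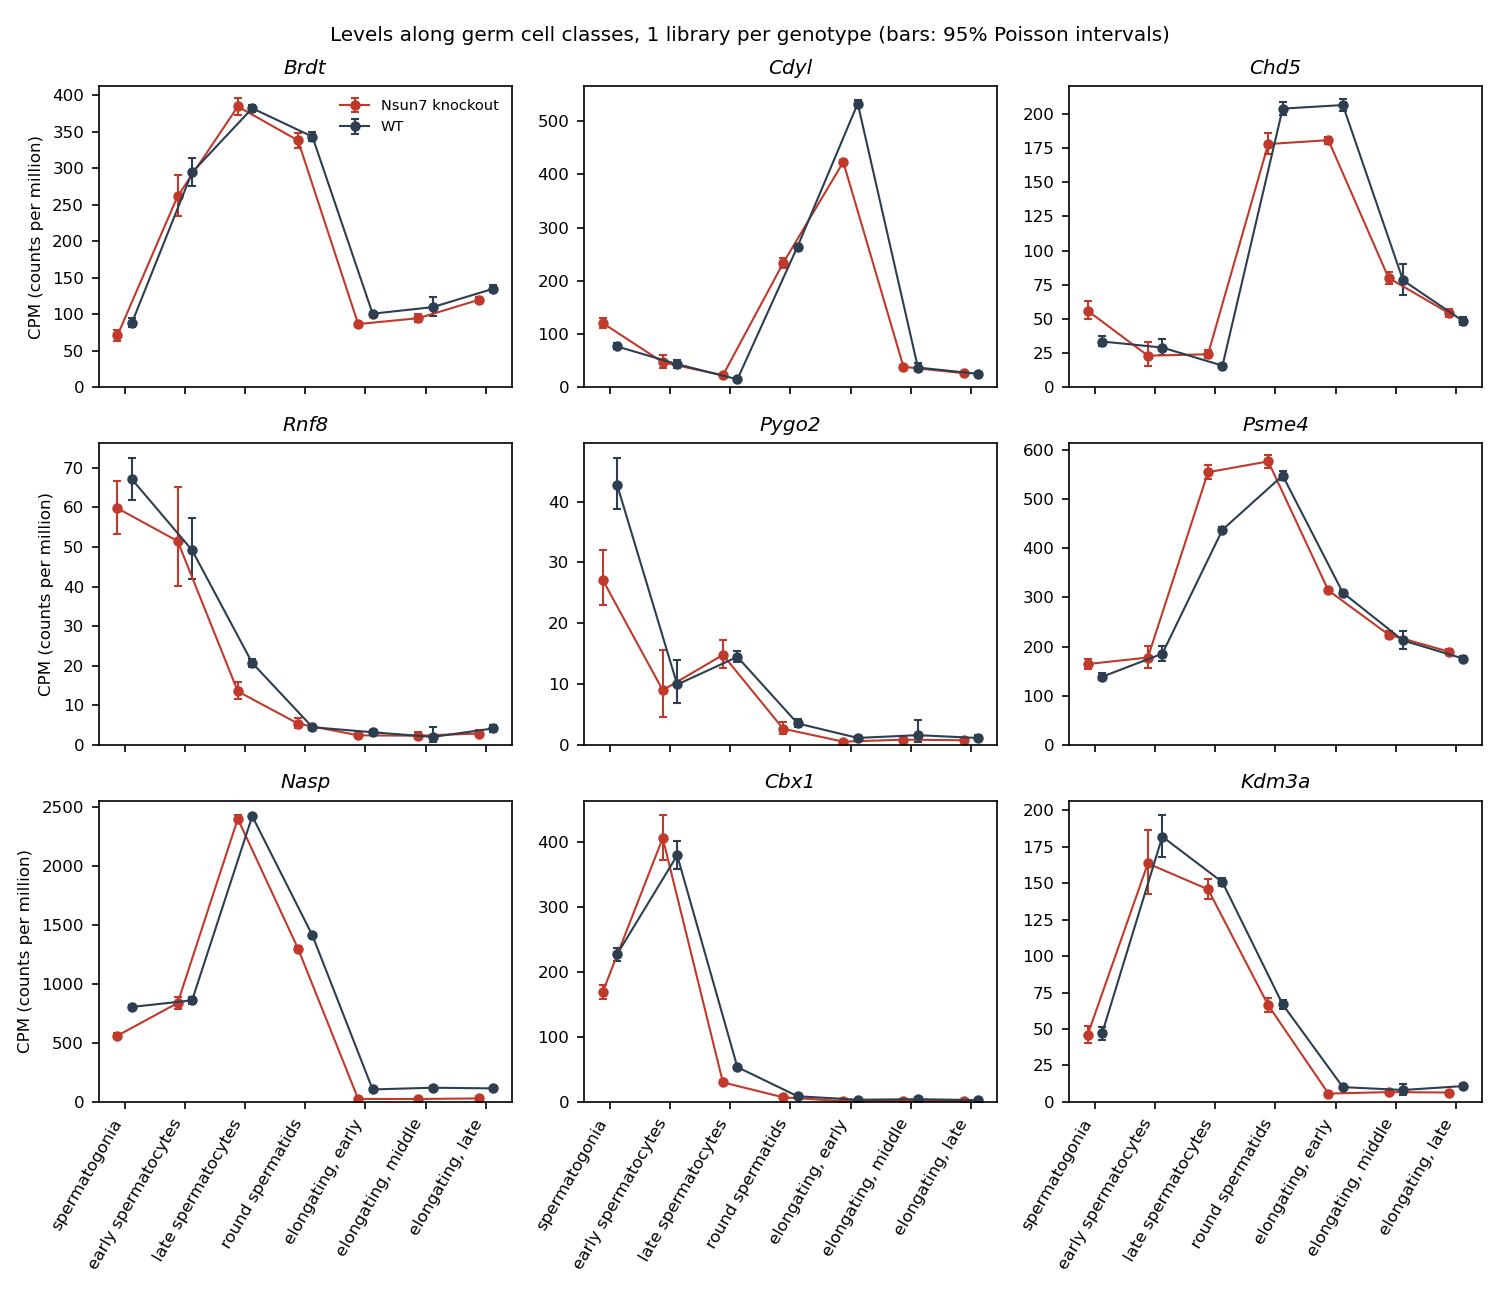
Level of each of the 9 genes in CPM (y axis, linear) along 7 germ cell stages (x axis), knockout points left of WT points, bars 95% Poisson intervals of 1 library each. Each gene has its highest point at the same one of the 7 stages in both libraries, with Nasp near 2400 CPM in late spermatocytes of both and Cdyl highest in early elongating spermatids.

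Brdt, the testis-specific bromodomain protein that binds acetylated histone tails and is required in mice for histone replacement, came on at meiotic entry. It stood at 71.1 CPM in knockout and 88.3 CPM in WT spermatogonia, and at 262 CPM (95% interval 235 to 291) in knockout and 295 CPM (276 to 314) in WT early spermatocytes. Late spermatocytes held 385 CPM (374 to 396) in the knockout and 382 CPM (378 to 387) in WT. Round spermatids were next, at 338 CPM in the knockout and 343 CPM in WT, and elongating spermatids fell to 92.8 CPM in the knockout and 111 CPM in WT. In late spermatocytes and round spermatids the knockout over WT ratio was 1.01 (0.975 to 1.04) and 0.985 (0.95 to 1.02), so both intervals include equality. The more widely expressed relatives Brd2 and Brd3 were highest, as Brdt was, in late spermatocytes.

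Rnf8, an E3 ubiquitin ligase that ubiquitinates histones at DNA breaks and, in mouse spermatids, before histone removal, was highest in the mitotic and early meiotic cells. It measured 59.8 CPM (53.4 to 66.8) in knockout and 67.1 CPM (62.0 to 72.6) in WT spermatogonia, and 51.5 and 49.2 CPM in early spermatocytes of the knockout and WT. Late spermatocytes held 13.5 CPM in the knockout and 20.7 CPM in WT, and elongating spermatids 2.42 CPM and 3.38 CPM. Thinned to 1000 UMIs per cell, 0.534% of knockout (3 of 562 cells, median depth 14535 UMIs before thinning) and 0.656% of WT round spermatids (9 of 1372, median 16986.5) had an Rnf8 UMI (10.1% and 8.89% before thinning), beside 1.61% of knockout and 2.87% of WT Leydig cells (medians 13522.5 and 10100). Rnf8 is widely expressed, so no class here serves as a blank for it, and its share in round spermatids was not above that in this somatic class. Its partner ligase Rnf168, which extends the marks that Rnf8 starts, held 77.4% of its highest class level in knockout and 100% in WT round spermatids.

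Pygo2, a PHD finger protein that reads methylated histone tails and is needed in mice for histone acetylation in spermatids, was a gene of spermatogonia at the level of its transcript. Spermatogonia held 27.2 CPM (22.9 to 32.0) in the knockout and 42.8 CPM (38.7 to 47.2) in WT. Late spermatocytes held 14.8 CPM in the knockout and 14.4 CPM in WT, round spermatids 2.62 CPM in the knockout and 3.49 CPM in WT, and elongating spermatids 0.565 CPM in the knockout and 1.12 CPM in WT. After thinning, 0 of 562 knockout round spermatids had a Pygo2 UMI, which allows a share with a UMI of up to 0.534% at that depth, against 4 of 1372 WT round spermatids (0.292%). Before thinning, 4.63% of the knockout and 6.92% of the WT round spermatids had one, beside 12.4% of knockout and 8.88% of WT Leydig cells. These shares limit cells with a UMI, not cells that express the gene. The thinned shares in Leydig cells were 1.08% in the knockout and 0.573% in WT, so Pygo2 in round spermatids was not above this somatic class in either library at this depth.

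Psme4 encodes PA200, the proteasome activator that directs degradation of acetylated histones in mouse spermatids. It was present at 164 and 138 CPM in spermatogonia of the knockout and WT and reached 555 CPM (542 to 569) in knockout and 438 CPM (433 to 443) in WT late spermatocytes. Round spermatids held 577 CPM (564 to 591) in the knockout and 549 CPM (540 to 557) in WT, and elongating spermatids 285 and 266 CPM. There were 15 clusters of late spermatocytes and spermatids with at least 25 cells in each library and a median of 3000 UMIs or more. Psme4 was higher in the knockout in 14 of them and lower in 1. All clusters are parts of the same 2 libraries, so this count is not a replicate check. The gap was widest in the earliest of these clusters, cluster 6, with 423 CPM in knockout and 305 CPM in WT cells, and small from cluster 19 to cluster 10, where the values were 551, 438 and 348 CPM in knockout cells and 548, 426 and 354 CPM in WT cells. In late spermatocytes as a whole the ratio was 1.27 (1.23 to 1.30), under the 1.5-fold rule used for calls. The other activators behaved otherwise: Psme1 and Psme2, of the immune type, were among germ cell classes highest in spermatogonia, with 1.34% and 0.904% of that level in knockout and 1.26% and 1.13% in WT round spermatids. Psme3 was highest in elongating spermatids, at 241 CPM in the knockout and 219 CPM in WT.

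Chd5, a nucleosome remodeller needed in mice for histone removal and sperm chromatin condensation, was 24.2 CPM (21.4 to 27.2) in knockout and 15.9 CPM (14.9 to 16.8) in WT late spermatocytes. Round spermatids held 178 CPM (170 to 186) in the knockout and 204 CPM (199 to 209) in WT. That is 7.35-fold (6.49 to 8.36) above late spermatocytes in the knockout and 12.9-fold (12.1 to 13.7) in WT. Subtracting free RNA by the Leydig gene guide described below left 16.2 CPM in knockout and 9.77 CPM in WT late spermatocytes. The folds given here are without that subtraction, and their difference between libraries was not tested. The early elongating range was close to round spermatids, at 181 CPM in the knockout and 206 CPM in WT. The middle range held 80.0 CPM in the knockout and 78.2 CPM in WT, and the late range 54.3 CPM in the knockout and 48.4 CPM in WT. Across clusters it reached cluster 15 at a level already above that of any late spermatocyte cluster (110 CPM in knockout, 108 CPM in WT cells) and peaked in cluster 26 (353 and 364 CPM), the last of the round spermatids. Its relative Chd3 was highest in early spermatocytes and had 13.1% of that level in knockout and 12.6% in WT round spermatids.

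Cdyl, a chromodomain protein that binds methylated histones and acts as a corepressor, followed Chd5 with a delay. It was lowest in late spermatocytes, at 22.6 CPM (19.9 to 25.5) in the knockout and 15.2 CPM (14.3 to 16.1) in WT. It reached 233 CPM (225 to 242) in knockout and 264 CPM (259 to 270) in WT round spermatids. That was 10.3-fold (9.11 to 11.8) and 17.5-fold (16.4 to 18.6) higher than in late spermatocytes. Subtracting free RNA left 6.09 CPM in knockout and 3.64 CPM in WT late spermatocytes. Most of the lower level was thus removed, and the difference between the folds of the 2 libraries was not tested. In the order of clusters Cdyl was still 27.6 CPM in knockout and 24.8 CPM in WT cells of cluster 15, where Chd5 had already passed 100 CPM. Cluster 19 held 210 and 295 CPM, cluster 26 held 1057 and 1054 CPM, and the peak came in cluster 10, with 1407 CPM in knockout and 1435 CPM in WT cells. Past the peak it dropped sharply, to 125 CPM in knockout and 152 CPM in WT cells of cluster 1 and to 38.6 and 37.2 CPM in the middle elongating range. The step into that range was 11.0-fold (10.1 to 11.9) downward in the knockout and 14.3-fold (11.7 to 17.7) downward in WT. The middle range held 815 knockout and 182 WT cells. Its cut lies at 15% of counts from Prm1 plus Prm2. Within 10% of that cut lay 11.9% of knockout and 4.58% of WT elongating cells. Chd5 fell by less at the same step, 2.26-fold (2.13 to 2.40) and 2.64-fold (2.29 to 3.05). The paralogue Cdyl2 was highest in round spermatids and at 7.31% of that level in knockout and 8.68% in WT elongating spermatids.

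**Figure D2:**
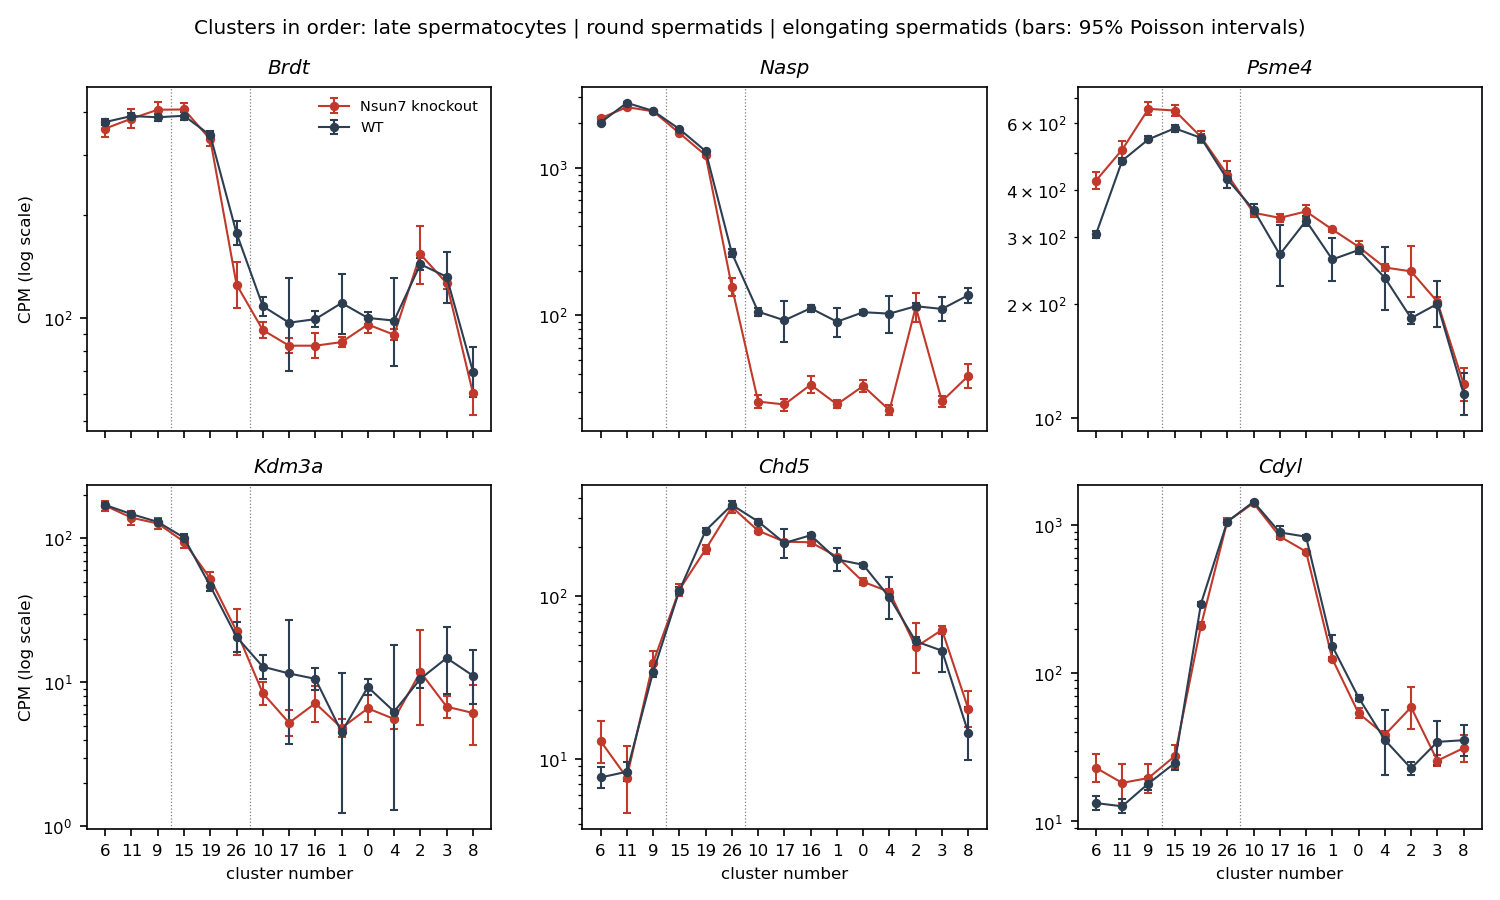
Level in CPM (log y axis) of 6 genes in 15 clusters (x axis, cluster numbers), ordered within late spermatocytes by rising Acrv1, within round spermatids by rising Tnp1 and within elongating spermatids by falling Ldhc after clusters under 10000 CPM Tnp1 were put last. Lines join knockout or WT values, bars are 95% Poisson intervals and dotted lines part the classes. Chd5 peaks in cluster 26 and Cdyl in cluster 10. Nasp is lower in the knockout in 14 of the 15 clusters and higher in 1, which is not a cluster of elongating spermatids. Cluster 2, among the 14, has nearly equal levels.

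Nasp, a histone chaperone that carries histones newly made in S phase and has a long testis form, reached 2396 CPM (2368 to 2424) in knockout and 2418 CPM (2406 to 2429) in WT late spermatocytes. Early spermatocytes held 837 CPM (789 to 888) in the knockout and 860 CPM (829 to 892) in WT, and round spermatids 1299 CPM (1278 to 1319) and 1409 CPM (1396 to 1422). The knockout over WT ratios in these 3 classes were 0.973 (0.908 to 1.04), 0.991 (0.978 to 1.00) and 0.922 (0.905 to 0.939). Nasp then fell 49.0-fold (47.3 to 50.8) to 26.5 CPM in knockout elongating spermatids, against a 12.9-fold fall (12.6 to 13.2) to 109 CPM in WT elongating spermatids. Subtracting free RNA by the Leydig gene guide left 10.4 CPM in knockout and 25.8 CPM in WT elongating spermatids. Most of the lower level was thus removed in both libraries. The folds are without that subtraction, and their difference between libraries was not tested.

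Cbx1, which encodes the heterochromatin protein HP1 beta that binds methylated histone tails, showed the steepest meiotic loss of the set. Spermatogonia held 169 CPM in the knockout and 227 CPM in WT, and early spermatocytes 407 CPM (373 to 442) in the knockout and 380 CPM (359 to 402) in WT. Late spermatocytes held 30.2 CPM (27.2 to 33.6) in the knockout and 53.7 CPM (52.1 to 55.5) in WT, a fall of 13.4-fold (11.7 to 15.4) and 7.07-fold (6.63 to 7.54) from the stage before. Elongating spermatids held 1.38 CPM in the knockout and 3.36 CPM in WT, and 0.491 and 0.245 CPM after subtraction of free RNA. Its relatives lasted longer: Cbx5 was highest in late spermatocytes, and Cbx3, highest in spermatogonia, kept 35.8% of that level in knockout and 30.3% in WT late spermatocytes.

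Kdm3a, a demethylase of the repressive histone mark that Cbx1 binds and an activator of transition protein and protamine genes in mice, was a meiotic gene at the level of its transcript. Early spermatocytes held 163 CPM (142 to 187) in the knockout and 182 CPM (168 to 197) in WT, and late spermatocytes 146 CPM (139 to 153) and 151 CPM (148 to 153). Round spermatids held 66.3 CPM (61.7 to 71.1) and 66.9 CPM (64.0 to 69.8), and elongating spermatids 5.98 and 10.3 CPM. In the elongating class, free RNA subtraction left 4.80 CPM in the knockout and 5.10 CPM in WT. The paralogue Kdm3b was also highest in early spermatocytes but had 2.75% of that level in knockout and 2.72% in WT late spermatocytes, where Kdm3a kept 89.1% in the knockout and 82.8% in WT.

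**Figure D3:**
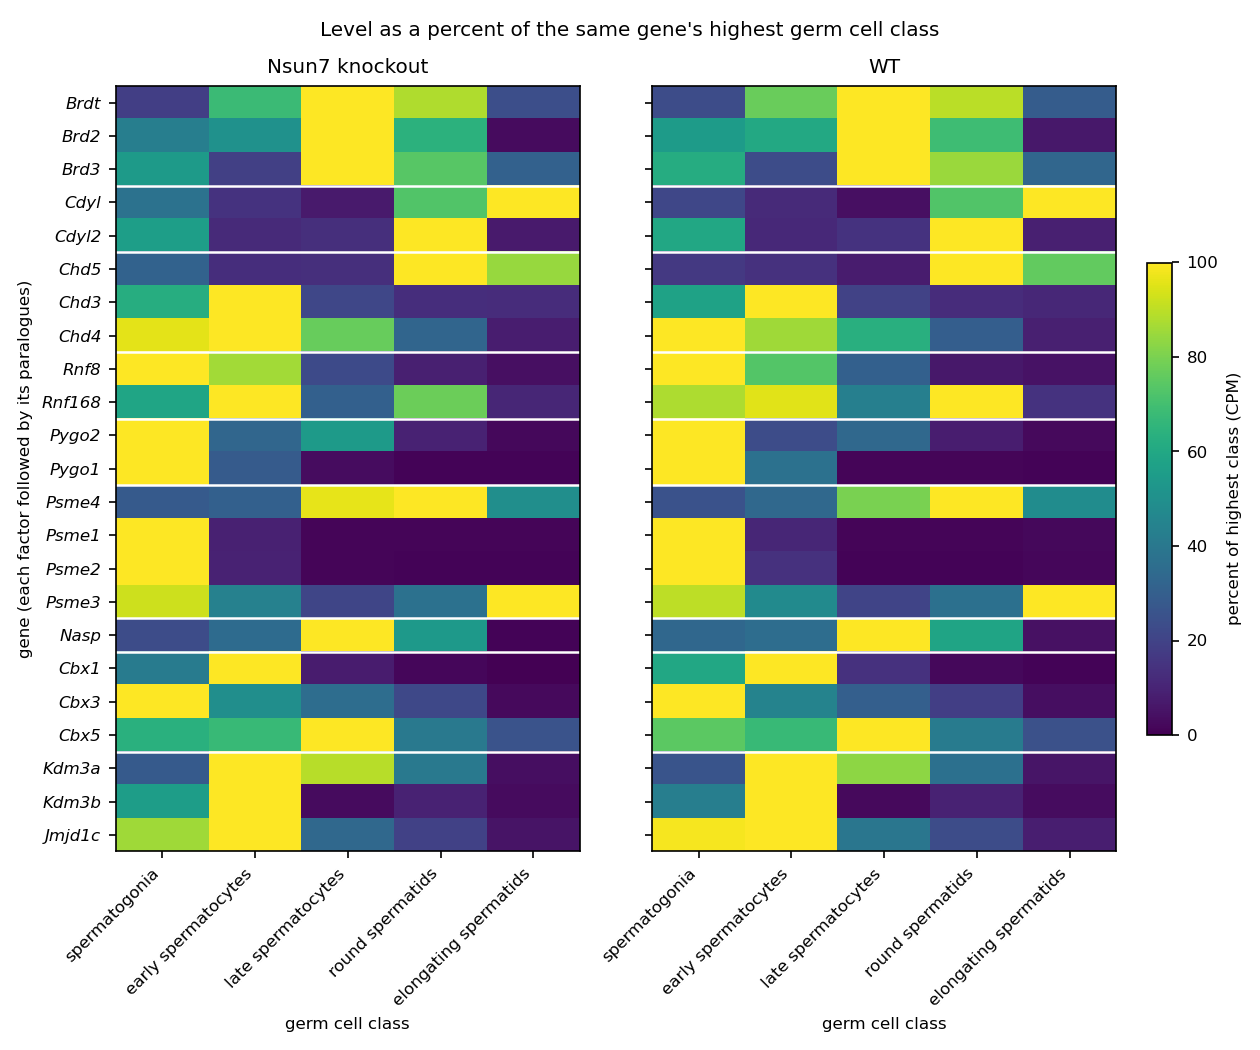
Level of each gene and its paralogues (rows) in 5 germ cell classes (columns) as a percent of the gene's own highest class, knockout panel left and WT panel right. In both panels Brdt, Psme4, Chd5 and Cdyl are high in round spermatids, as are the paralogues Brd2, Brd3, Cdyl2 and Rnf168. The paralogues Psme1, Psme2 and Chd3 are not, nor are the factors Rnf8, Pygo2 and Cbx1.

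The counts of calls between stages read as follows against all genes. From spermatogonia to early spermatocytes, 3 of 9 genes were at least 2 times higher and 3 lower in the knockout (14.6% and 13.4% of all genes tested), and 2 higher and 1 lower in WT (10.7% and 13.2%). Brdt and Kdm3a were higher and Pygo2 lower in both libraries, and Cbx1, Cdyl and Chd5 passed in the knockout but not in WT, a difference that was not tested. Into late spermatocytes, 2 of 9 were higher (Psme4 and Nasp) in each library, against 27.5% of genes in the knockout and 25.1% in WT. In the same step 2 were lower in the knockout (Rnf8 and Cbx1) and 3 in WT (those and Cdyl), against 35.6% and 35.9% of genes.

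Into round spermatids, Cdyl and Chd5 were higher in both libraries, 2 of 7 tested in the knockout and 2 of 8 in WT, beside 23.8% and 25% of genes. Cbx1 and Kdm3a were lower in both, and Rnf8 in WT as well, beside 18.5% of genes in the knockout and 20% in WT. Into elongating spermatids none of 6 genes was higher in either library (10.8% of genes in the knockout and 10.3% in WT). Brdt, Psme4, Nasp and Kdm3a were lower in both (58.7% and 57.3%). From the early to the middle elongating range 2 of 5 genes, Cdyl and Chd5, were lower in both libraries, beside 16.5% of genes in the knockout and 15.8% in WT, and none was higher (0% and 0.0202%). From the middle to the late range none of 5 was called in either library, where 6.22% of genes were lower and 0.0778% higher in the knockout, and 7.12% lower and 0.269% higher in WT. These shares rest on at most 9 genes, and nothing particular to the set is read from them.

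The comparison of knockout with WT asked whether the same factors differ in level within each class. A gene was called when it was at least 1.5 times apart after adding 5 CPM to both sides, at a mean of at least 10 CPM. In early spermatocytes 0 of 8 tested genes were higher and 0 lower, where 1.8% of all genes were higher and 7.23% lower. Round spermatids likewise had 0 of 6 in either direction, beside 0.108% of genes higher and 0.108% lower. Among the 6 tested genes the ratios farthest from 1 in round spermatids were those of Chd5, with a ratio of 0.873 (0.830 to 0.917), and Cdyl, with 0.882 (0.845 to 0.921).

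**Figure D4:**
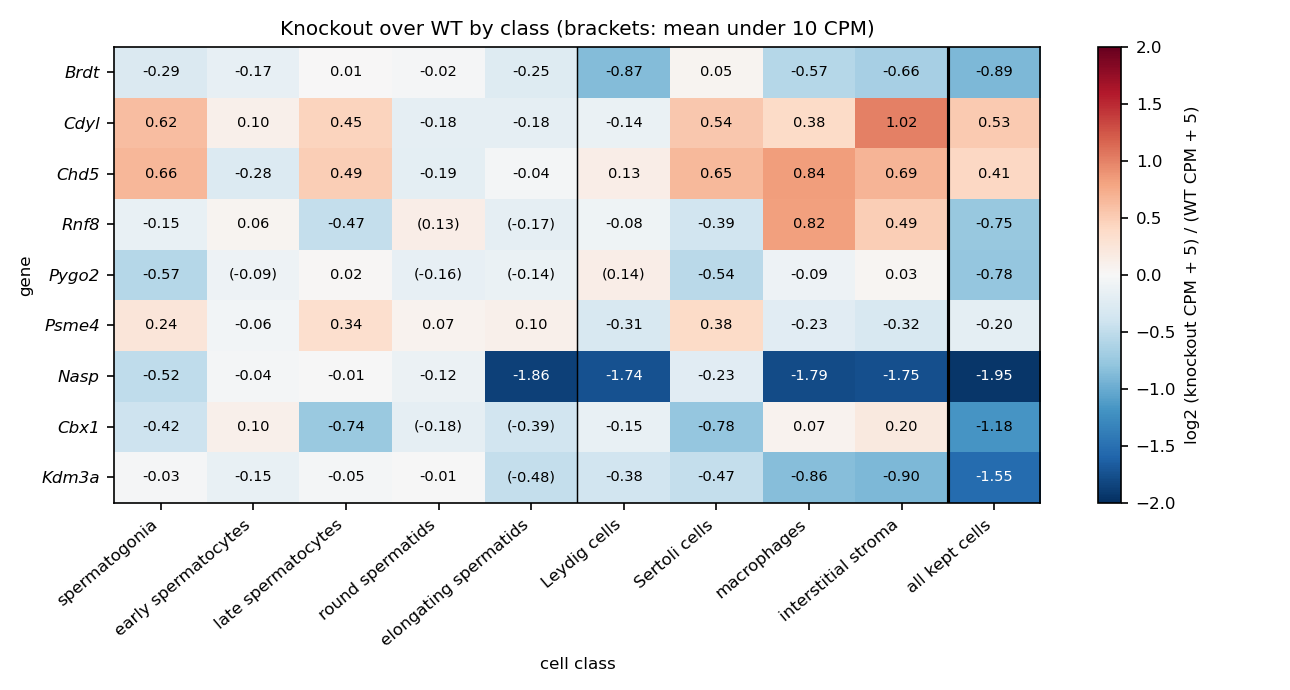
Colour and number give log2 of knockout over WT, with 5 CPM added to both sides, for each gene (rows) in each class and over all kept cells (columns), with brackets where the mean was under 10 CPM. Values in early spermatocytes and round spermatids lie between -0.28 and 0.13, and Nasp stands at -1.74 to -1.86 in elongating spermatids, Leydig cells, macrophages and interstitial stroma.

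In late spermatocytes 0 of 9 genes were higher (3.49% of all genes) and 1 was lower (0.364%), namely Cbx1, which was 1.78-fold (1.59 to 1.99) lower. By cluster, Cbx1 was 53.2 CPM in knockout and 104 CPM in WT cells of cluster 6, 31.2 and 34.7 CPM in cluster 11, 10.6 and 18.4 CPM in cluster 9, and 24.0 and 29.2 CPM in the low-count cluster 5. Cluster 6 held 283 of the 1404 knockout and 1153 of the 3800 WT late spermatocytes, and cluster 5 held 688 knockout and 769 WT cells. With the same mix of clusters in both libraries the log2 difference was -0.57, and the call was lost.

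In spermatogonia 2 of 9 genes were called higher (7.5% of all genes) and 0 lower (3.17%). Cdyl measured 121 CPM (112 to 131) in the knockout and 76.9 CPM (71.3 to 82.7) in WT, and Chd5 56.0 CPM (49.8 to 62.8) and 33.5 CPM (29.9 to 37.5). Transcripts of spermatids were also higher in these knockout cells, with Tnp1 at 14889 CPM in the knockout and 5610 CPM in WT. The differences were widest in cluster 12, where 18.49% of cells were called doublets and Tnp1 stood at 25664 CPM in knockout and 8972 CPM in WT cells. There Cdyl was 174 CPM in knockout and 83.9 CPM in WT cells, while in cluster 22 it was 42.7 and 70.3 CPM and in cluster 25 it was 91.6 and 68.5 CPM. Without cluster 12, 0 genes were called, with log2 values of -0.11 for Cdyl and -0.15 for Chd5, and without called doublets the values were -0.19 and 0.11. Nasp was 561 CPM (541 to 582) in knockout and 804 CPM (786 to 823) in WT spermatogonia, under the rule for a call, with 428 and 717 CPM in cluster 12 and 1024 and 1142 CPM in cluster 22.

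In elongating spermatids 0 of 5 tested genes were higher (0.021% of all genes) and 1 was lower (7.32%), namely Nasp. The knockout level was 26.5 CPM (25.7 to 27.3) and the WT level 109 CPM (107 to 112), 4.13-fold (3.97 to 4.29) lower in the knockout. It was similar in the 3 ranges, with 25.9, 25.3 and 30.1 CPM in early, middle and late knockout cells and 106, 121 and 115 CPM in WT cells, with no steady decline along the class in either library. In each range 1 of 5 genes, Nasp again, was lower (7.42%, 9.84% and 9.59% of all genes from early to late) and 0 were higher (0.0204%, 0.193% and 0.489%). After thinning, 2.93% (2.58 to 3.32) of knockout and 11.2% (10.4 to 12.2) of WT elongating spermatids had a Nasp UMI, and before thinning 33.1% and 69.2%, at median depths of 15118.5 and 11713 UMIs. The thinned shares in Leydig cells were 5.91% in the knockout and 14.0% in WT, so Nasp in elongating spermatids was not above this somatic class in either library. CPM was scaled to all counts. The trimmed mean of the log2 ratios of genes counted in both libraries, at any level, was -0.44 in this class. Over genes tested at a mean of 10 CPM or more, with 5 CPM added, the median was -0.07. Scaled to the trimmed mean instead, Nasp stood at -1.49, Psme4 at 0.53, and Brdt (0.17), Cdyl (0.25) and Chd5 (0.38) changed sign. Because their sign depends on this choice of scaling, these 3 are given no direction in this class.

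Nasp was also lower in the knockout, and called, in 3 of 4 somatic classes. Sertoli cells were the exception, with 456 CPM (429 to 484) in the knockout and 536 CPM (514 to 559) in WT, a ratio of 0.850 (0.790 to 0.915) that was not called. Leydig cells held 48.6 CPM in the knockout and 174 CPM in WT, interstitial stroma 103 and 358 CPM, and macrophages 139 and 492 CPM. Over all kept cells Nasp was 303 CPM in the knockout and 1185 CPM in WT library, a log2 difference of -1.95 with 5 CPM added, beside -1.86 in elongating spermatids, -1.74 in Leydig cells, -1.79 in macrophages and -1.75 in interstitial stroma. As a share of the whole-library level, Nasp in elongating spermatids stood at 8.75% in the knockout and 9.22% in WT. A guide of 4 Leydig genes (Insl3, Cyp17a1, Cyp11a1 and Hsd3b1), which germ cells should lack, stood there at 5.33% and 7.04% of its whole-library level. Subtracting that guide's share of free RNA left Nasp at 10.4 CPM in the knockout and 25.8 CPM in WT and a log2 difference of -1.0.

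**Figure D5:**
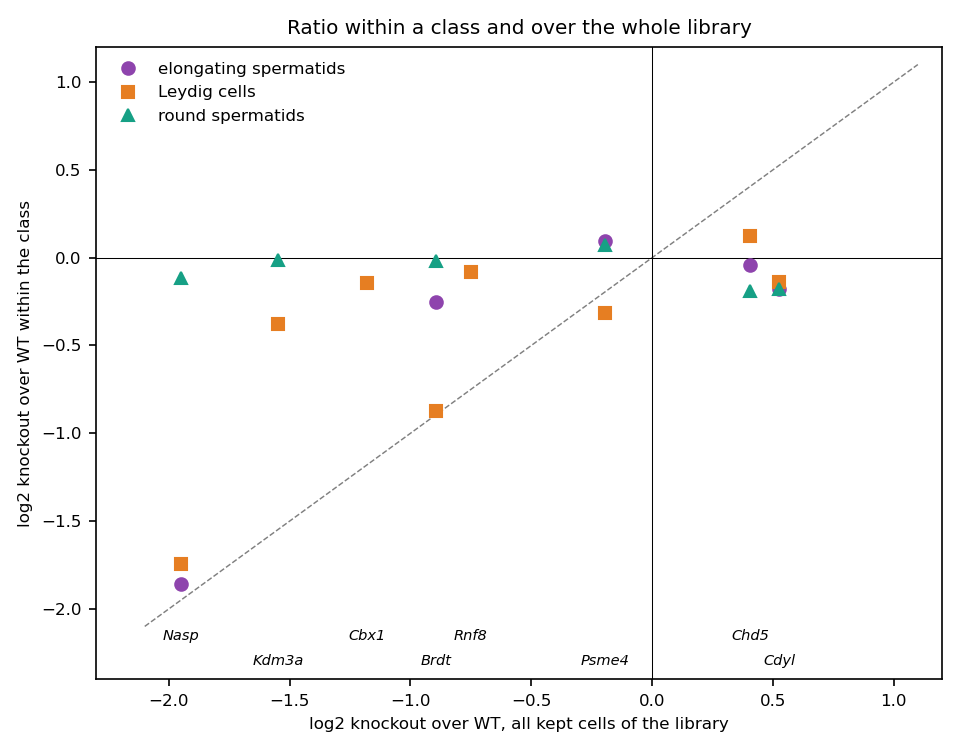
Log2 of knockout over WT within a class (y axis) against the same over all kept cells (x axis), 1 point per gene with a mean of 10 CPM or more, 5 CPM added, dashed line for equal values. Nasp in elongating spermatids and in Leydig cells and Brdt in Leydig cells lie near the dashed line, while round spermatids lie near 0. Other genes of these classes lie off the line. Kdm3a, Cbx1 and Rnf8 in Leydig cells and Brdt in elongating spermatids lie nearer 0 than the line. Cdyl lies below 0 in elongating spermatids and Leydig cells but above 0 over all kept cells.

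Clusters of the elongating class were filled unevenly by the 2 libraries. Clusters 1, 4 and 17 held 60, 43 and 28 WT cells beside 1702, 1608 and 783 knockout cells. Within the class, knockout cells had 22.6 to 38.7 CPM of Nasp in 8 of 9 clusters and WT cells 90.2 to 137 CPM in all 9. The exception was cluster 2, a late cluster of mainly WT cells, where 64 knockout cells had 114 CPM and 1693 WT cells 115 CPM. Those 64 cells had 63.4 CPM of Nsun7 and 36.9 CPM of the 4 Leydig genes, while WT cells of the cluster had 139 and 35.4 CPM. In the other 8 clusters knockout cells had 19.7 to 60.8 CPM of Nsun7. Cdyl was also higher in those 64 cells, at 59.0 CPM against 22.8 CPM in WT cells of the cluster.

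Somatic classes were compared for the same reason. In Leydig cells 0 of 8 tested genes were higher (0.412% of all genes) and 2 were lower (6.12%), Nasp and Brdt. Brdt stood at 21.8 CPM (18.2 to 25.9) in the knockout and 44.1 CPM (38.4 to 50.5) in WT. In interstitial stroma Cdyl and Chd5 were higher (7.07% of genes) and Brdt, Nasp and Kdm3a lower (14.2%). In macrophages Chd5 and Rnf8 were higher (9.38%) and Nasp and Kdm3a lower (31.8%), with Rnf8 resting on wide intervals, 20.2 CPM (11.8 to 32.4) in the knockout and 9.32 CPM (4.03 to 18.4) in WT. In Sertoli cells Chd5 was higher (9.85%) and Cbx1 lower (29.2%). The trimmed mean of the log2 ratios of genes counted in both libraries was -0.38 in Sertoli cells and -0.34 in macrophages. The medians over tested genes were -0.37 and -0.29, so lower calls in both include a shift shared by most genes. Chd5 there was 79.3 CPM in knockout and 63.8 CPM in WT cells of the low-count cluster 13, and 8.52 and 19.9 CPM in cluster 29. Summed Tnp1 and Prm2, which somatic cells should lack, stood at 10452 CPM in knockout and 8979 CPM in WT Leydig cells and at 42534 CPM in knockout and 32382 CPM in WT stroma. They stood at 55040 CPM in knockout and 33732 CPM in WT macrophages, and at 40396 CPM in knockout and 14075 CPM in WT Sertoli cells. Germ cell transcripts thus reached all 4 classes, and their part in these calls was not tested.

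The direction of these somatic calls matched the whole-library difference for all but Rnf8. Over all kept cells Cdyl was 278 CPM in the knockout and 192 CPM in WT and Chd5 136 and 101 CPM, while Brdt was 129 and 243 CPM, Kdm3a 22.2 and 74.4 CPM, Cbx1 16.8 and 44.3 CPM, Rnf8 6.84 and 14.9 CPM and Pygo2 3.13 and 8.91 CPM. The share of elongating spermatids was 59.2% of knockout and 31.6% of WT cells, and that of late spermatocytes 10.1% and 25.1%. Over a whole library the level per cell and the mix of cells cannot be told apart.

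Other chromatin genes were counted from 7 lists with 129 genes, chosen for their roles. In late spermatocytes 0 of 88 tested genes were called in either direction, where 3.49% of all genes were higher and 0.364% lower. In round spermatids 0 of 81 were called, where 0.108% of all genes were called each way, so a count of 0 there is no result about the lists. Their median log2 differences were -0.05 and -0.04, beside -0.03 and -0.03 over all genes. The extremes in late spermatocytes were Brd8, a bromodomain protein of an acetyltransferase complex, at 38.6 CPM in the knockout and 52.3 CPM in WT, and Cul4b, a ubiquitin ligase scaffold, at 30.8 and 21.1 CPM. Those in round spermatids were Mllt10, a cofactor of histone methylation, at 13.1 and 21.5 CPM, and Hat1, a histone acetyltransferase, at 107 and 93.9 CPM.

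By list, the lowest and highest ratios in late spermatocytes belonged to Brd8 and Nutm1 among acetylation genes, Mdc1 and Cul4b among ubiquitination genes, Psma8 and Psme3 among proteasome genes and Ino80 and Smarca2 among remodellers. They were Nap1l1 and Hat1 among histone chaperones, Cbx7 and Suv39h2 among methylation and chromodomain genes, and Parp2 and Top2a among strand break genes. In round spermatids the same lists had as extremes Kat7 and Brwd1, Cul4a and Ube2a, Psma8 and Psme3, Smarca4 and Smarca2, Nap1l4 and Hat1, Mllt10 and Cdyl2, and Parp1 and Lig3. None of these passed the 1.5-fold rule with 5 CPM added.

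In spermatogonia 4 of 123 listed genes were lower and 0 higher, and in early spermatocytes 5 of 111 were lower and 0 higher, 3.25% and 4.50% of the listed genes, where 3.17% and 7.23% of all genes were lower and 7.5% and 1.8% were higher. In elongating spermatids 5 of 33 listed genes were lower, 15.2% where 7.32% of all genes were lower, and 0 were higher. They included Rbbp4, a histone-binding subunit of several chromatin complexes, at 7.77 CPM in the knockout and 18.7 CPM in WT, Brd2 at 17.0 and 35.7 CPM, Smarca2 at 18.0 and 29.7 CPM and Mllt10 at 8.89 and 17.1 CPM. Psme3 had the highest ratio, at 241 CPM in knockout and 219 CPM in WT cells. After subtraction of the free RNA guide, 0 of the listed genes were lower in elongating spermatids.

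The extremes by list in elongating spermatids were Brd2 and Brd3, Trip12 and Ube2b, Smarca2 and Chd3, Rbbp4 and Chaf1a, Mllt10 and Phf7, and Parp11 and Lig3, with Psme3 the only proteasome gene tested. Phf7, a histone ubiquitin ligase of spermatids, was 888 CPM in the knockout and 829 CPM in WT. Ube2b, a ubiquitin-conjugating enzyme needed in mouse spermatids, was 141 CPM in both.

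Genes most like each factor were sought over 18 points, the 9 classes of both libraries, among 8365 genes. Points of a library share its depth and its free RNA, so the values are descriptive. Brdt was most like Efcab2 (Pearson r 0.99), Zfp541 (0.97) and Tsga10 (0.97), and Psme4 most like Med9os (0.98), Znrd1as (0.98) and Tex2 (0.98). Cdyl was most like Rmnd1 (0.98), Asb9 (0.98) and Calr3 (0.98), and Chd5 most like Sh3d21, Cylc2 and Tmco5 (all 0.99). Nasp was most like Nup205, Gtf2e2 and Ccnb2 (all 0.98), and Kdm3a most like Senp2 (0.99), Nol8 (0.98) and Rbm27 (0.98). Cbx1 was most like Sart3 and Ankrd17 (both 0.98), Rnf8 most like Ggps1, Kansl2 and Polr2g (all 0.97), and Pygo2 most like Pwp1 and Polr2e (both 0.94). Among themselves the factors paired as Cdyl with Chd5 (0.936), Rnf8 with Cbx1 (0.955), Nasp with Kdm3a (0.898) and Brdt with Psme4 (0.831). Links across these pairs were also high, such as Rnf8 with Pygo2 (0.817) and Brdt with Nasp (0.801).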

How the data were processed

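Dissociated adult testis, 1 Nsun7 knockout and 1 wild-type library, was profiled with a droplet system. The deposited matrices hold raw UMI counts per gene and barcode, made by the authors with PISA 0.12 per the file headers and the GRCm38 build per the submitters' processing notes. The aligner, annotation and use of strand are not stated there.

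Barcodes needed 200 detected genes and no more than 20% mitochondrial counts. Clustering used scanpy 1.11.5 and igraph 0.11.9 (3000 variable genes, 40 components, 20 neighbours, Leiden resolution 1), without the 9 genes, Nsun7 and the chromatin lists among the variable genes. Clusters were named from marker genes. Doublets were scored and kept, and their removal was an alternative. Counts were summed per class and library and scaled to CPM. Intervals were exact Poisson for levels, conditional binomial for ratios and Clopper-Pearson for shares. Elongating cells were ranged by Tnp1 (1% of counts) and Prm1 plus Prm2 (15%). Depth was 210531446 counts in the knockout and 220247156 in WT library. The arithmetic was tested on simulated data.

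All 9 genes were named, as were the 3 most like each, the paralogues and the lowest and highest gene of each list, except that some of these are not reported here. Members and lists were chosen with earlier results of these data known. With 1 library per genotype no test was run.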

Additional observations from a re-analysis of the deposited data

Results flagged for a closer look

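A signal in cells outside the comparisons was found in cluster 33, an unnamed cluster of 31 knockout and 2 WT cells with a median of 1362 UMIs, of which 18.18% were called doublets. Its knockout cells held Cdyl at 1240.8 CPM (60 counts), Chd5 at 1137.4 CPM (55 counts) and Psme4 at 3226 CPM (156 counts). The highest WT class levels of these genes were 363.8, 203.8 and 548.6 CPM, each averaged over a whole class. Against single clusters, Cdyl in cluster 10 was above cluster 33 in both libraries. Chd5 in its peak cluster was below cluster 33 in both libraries. The cluster is nearly all from 1 library, and no cause was tested.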

How the results depend on the processing

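Nasp in elongating spermatids was called lower under all 11 alternative settings chosen at the start, with log2 values of -1.0 (free RNA subtracted) to -2.0. Leaving out cluster 12 or cluster 9 was chosen after the data were seen. In spermatogonia 2 members were higher, against 0 with called doublets removed, at resolution 2, with the same cluster mix, thinned to 1000 UMIs or without cluster 12, and 1 at a minimum of 50 CPM. Cdyl reversed to -0.19, -0.15 and -0.11 with doublets removed, at resolution 2 and without cluster 12, and Chd5 to -0.036 and -0.15 in the last 2 of these. Members lower there numbered 0, against 3 with the stricter cell filter and 1 with each library clustered on its own or a prior of 1 CPM. In early spermatocytes the stricter filter gave 1 higher, against 0. In late spermatocytes 1 was lower, against 0 with the same cluster mix or a minimum of 50 CPM and 2 when thinned, and 0 were higher, against 2 with own clustering, 1 when thinned and 2 without cluster 9. In round spermatids own clustering gave 3 lower and 1 higher, against 0 each, and in elongating spermatids 2 lower, against 1.

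Listed chromatin genes, 0 in late spermatocytes, gave 2 lower and 4 higher with own clustering and 4 lower and 1 higher when thinned. In round spermatids, also 0, own clustering gave 48 lower and 2 higher, thinning 4 and 3, and a prior of 1 CPM 1 lower. In elongating spermatids 5 were lower, against 10 with own clustering, 2 with trimmed-mean scaling, 8 without protamine and transition protein counts, 0 with free RNA subtracted, 0 at a minimum of 50 CPM and 8 when thinned. Downward stage steps numbered 13 in each library, against 8 in the knockout and 7 in WT at a minimum of 50 CPM, where fewer genes are tested. The cause of the other changes was not tested. No paired analysis was possible because each genotype has 1 library. Depth limits Rnf8 and Pygo2 in spermatids.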

Other observations

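Cluster 7, an unnamed low-count cluster of 677 knockout and 646 WT cells, held Cdyl at 785 CPM in knockout and 718 CPM in WT cells, Chd5 at 309 and 354 CPM, and Nasp at 621 and 855 CPM. Its best match by markers was round spermatids. It went unnamed for low counts and no own marker among its leading genes. The round spermatid class, which leaves these cells out, held Cdyl at 233 and 264 CPM, Chd5 at 178 and 204 CPM, and Nasp at 1299 and 1409 CPM. How far these cells would shift that class was not tested. Barcodes left out by the filters numbered 2968 in the knockout and 1237 in WT. They held Nasp at 212 CPM in the knockout and 297 CPM in WT, Kdm3a at 21.2 and 52.2 CPM, and Cdyl at 90.7 and 80.2 CPM.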
